A study of Mus musculus with 25 samples.

Results

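Crosslink sites of untagged, endogenous SRSF7 were compared with those of SRSF7-GFP isolated from the same kind of cell with the same antibody. The libraries were chosen by their titles: 2 of endogenous SRSF7 (replicates 4 and 5) and 2 of SRSF7-GFP (replicates 3 and 4), which makes 4 of the 25 libraries of the series. All 4 came from P19, a mouse embryonal carcinoma line, with the genotype SRSF7-GFP OE, which carries the tagged protein in excess beside the endogenous one. The cells were irradiated with UV at 254 nm and precipitated with a rabbit antibody against SRSF7, and the products were then taken from a gel by size. Both groups therefore share cells, transgene, antibody and crosslinking, and differ in the product cut from the membrane. Other libraries are given beside them where a value turns on it: 1 of endogenous SRSF7 from P19 cells of genotype WT, 2 of a shorter product labelled RRM from the overexpressing cells, 1 overexpressing control without UV, 1 without antibody, and 3 in which the tagged protein was precipitated with an antibody against GFP. The labels do not name the promoter of the transgene, say whether the line is a single clone, or state that the 4 libraries came from separate cultures, so p-values measure only the spread between these libraries, which may be technical.

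SRSF7 is a serine/arginine-rich (SR) protein with an RNA recognition motif and a zinc knuckle that bind RNA and an arginine/serine-rich tail that contacts other proteins. It takes part in splicing, polyadenylation and export of messenger RNA, and like other SR proteins it binds transcripts of its own gene, which contain a highly conserved poison exon that feeds back on its level. In iCLIP, UV light links protein to RNA, and reverse transcription tends to stop next to the linked nucleotide, so the start of each cDNA marks 1 crosslink event. No letters of the sites are printed, since no genome of the build of the files (mm9) was used here.

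Depth was uneven. The SRSF7-GFP libraries held 126658 events (replicate 3) and 471340 (replicate 4) on placed chromosomes, and the endogenous libraries held 33453 (replicate 4) and 83537 (replicate 5). A single event was thus worth between 2.12 and 29.9 CPM, the number of events scaled to a library of 1000000. The library without UV held 1789 events in all and the library without antibody 3080, which is 1.0% and 1.72% of the mean of the 4 libraries, but 5.34% and 9.19% of the shallowest of them. The file headers place SRSF7-GFP replicate 4, both endogenous libraries and the WT-cell library in 1 set, and SRSF7-GFP replicate 3 in another set with both controls. Leaving out SRSF7-GFP replicate 3 is therefore also the comparison within a set. Every interval given covers counting error only.

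At equal depth, events of endogenous SRSF7 were piled more tightly onto the same places than events of SRSF7-GFP, whose libraries had held more events before thinning. Each library was thinned 10 times to 33453 events and values were averaged. In the SRSF7-GFP libraries 2.24% (replicate 3) and 0.990% (replicate 4) of events lay at nucleotides with 5 or more events. In the endogenous libraries these shares were 3.92% (replicate 4) and 3.82% (replicate 5). Both endogenous libraries were above both SRSF7-GFP libraries, with a difference of 2.26 percentage points between means of 3.87% ± 0.0662 (SD, n = 2) and 1.61% ± 0.882 (SD, n = 2). Events with another crosslinked nucleotide within 5 nt made up 10.0% and 8.79% in SRSF7-GFP against 16.4% and 14.6% in endogenous SRSF7. The RRM library of replicate 4, with 42954 events before thinning, had 2.33% and 11.1% in these 2 measures. The anti-GFP libraries, with 221521, 1098442 and 3949479 events, had 0.678%, 0.0625% and 0.00628% at nucleotides with 5 or more. That share thus tended to fall as the size before thinning rose, and the part of size in the difference was not tested. At nucleotides with 2 or more events the groups also separated, but the endogenous libraries agreed far less. Endogenous replicates 4 and 5 had 17.85% and 9.77% there, and SRSF7-GFP replicates 3 and 4 had 7.90% and 4.93%. With 2 against 2 libraries a two-sided exact permutation test cannot reach p = 0.05, so such separations are described and not called.

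The tighter piling was also seen on places that the 4 libraries had no part in choosing. The authors' peak list for the anti-GFP libraries, called on 4 summed collections per its header, holds 2045481 nucleotides. Of the SRSF7-GFP events 19.04% (replicate 3) and 18.0% (replicate 4) fell on them, and of the endogenous events 21.8% (replicate 4) and 22.0% (replicate 5). The 39098 peak nucleotides with a score of 10 or more took 7.90% and 8.69% of SRSF7-GFP events against 10.4% and 11.3% of endogenous events. The 500 windows of 5000 nt with the highest level in the anti-GFP libraries took 11.4% and 13.5% of SRSF7-GFP events against 15.3% and 15.8% of endogenous events. Endogenous libraries were higher than the SRSF7-GFP libraries in all of these shares, although the lists came from the tagged protein. The anti-GFP libraries themselves, thinned alike, had 15.4%, 13.9% and 21.8% (replicates 2, 3 and 4) on the full peak list. The last of these lay near the endogenous libraries. At the peaks with a score of 10 or more they had only 4.30% to 6.39%. In the 500 windows they had 10.3% to 12.2%. The RRM library of replicate 4 had 8.41% and 13.6%.

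The endogenous library from WT cells did not share this concentration. At the same depth it had 1.32% of events at nucleotides with 5 or more events, 6.80% at strong anti-GFP peaks and 11.1% in the 500 windows, below both endogenous libraries of overexpressing cells in each. It is a single library with no replicate. The library without antibody, unthinned at 3069 events, had 10.4% of its events at strong peaks and 15.8% in the 500 windows, near the endogenous libraries of overexpressing cells. Positions of the library without antibody held 1.78% of events in each endogenous library, against 0.910% and 0.916% in the SRSF7-GFP libraries. The part of this background in the difference was not tested.

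**Figure D1:**
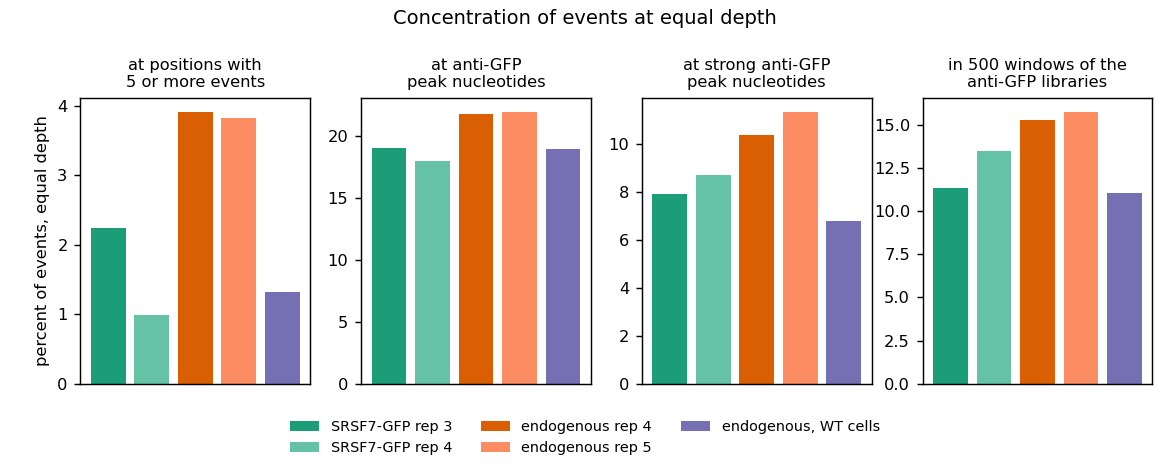
Percent of events (y axes, from 0) in 4 kinds of place after thinning to 33453 events, 1 bar per library, mean of 10 draws. Both endogenous bars of overexpressing cells stand above both SRSF7-GFP bars in each panel, for example 3.92% and 3.82% against 2.24% and 0.990% at nucleotides with 5 or more events, and the WT-cell bar is below the endogenous ones.

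The same individual nucleotides recurred most often between the 2 endogenous libraries. At equal depth, averaged over both directions, 8.58% of their events lay at a nucleotide that the other endogenous library also held. The 4 pairs of 1 endogenous and 1 SRSF7-GFP library shared 6.37%, 6.14%, 5.25% and 5.68%. The 2 SRSF7-GFP libraries shared only 3.97% with each other, less than any of those mixed pairs. The order was the same when events within 5 nt counted as shared, at 14.4% for the endogenous pair, 10.4% to 11.4% between groups and 8.16% for the SRSF7-GFP pair. Replicates of SRSF7-GFP were thus no closer to each other than to endogenous SRSF7, and they lie in different sets. The WT-cell library shared 5.12% and 5.53% with the endogenous libraries and 3.597% and 3.144% with the SRSF7-GFP libraries. Since libraries that pile their events onto fewer nucleotides share more by that alone, and pairs have libraries in common, no test was made.

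**Figure D2:**
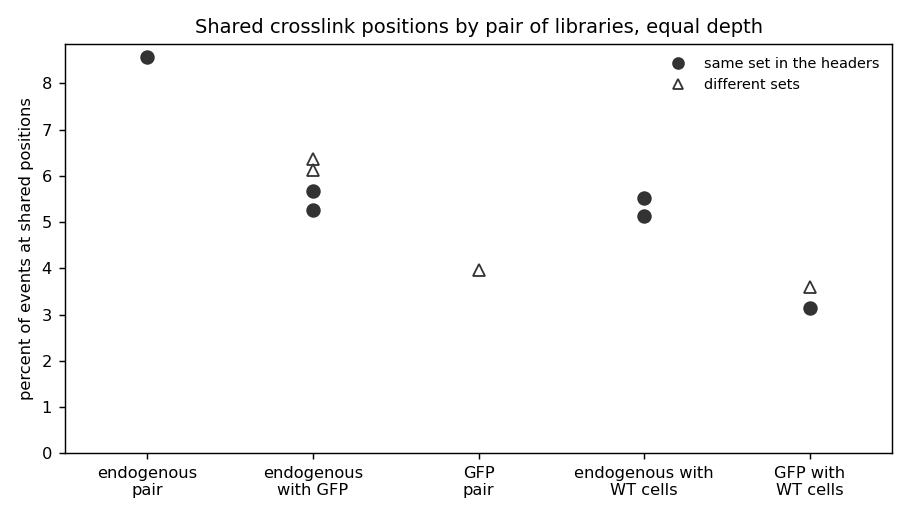
Percent of events at nucleotides present in both libraries of a pair (y axis, equal depth), 1 point per pair, grouped on the x axis by kind of pair. Filled circles are pairs within a set of the file headers and open triangles pairs across sets. The endogenous pair is highest at 8.58% and the SRSF7-GFP pair lies below every mixed pair at 3.97%.

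Across the genome no region passed the test of a difference between the products, which at 2 libraries a group is no sign that they bind alike. Of 441 windows of 5000 nt per strand, 0 passed an adjusted p of 0.05 (0% called) in the negative binomial quasi-likelihood test moderated with limma, and the lowest adjusted p was 0.981. At an unadjusted p under 0.05 there were 7 windows, 5 higher in endogenous SRSF7 and 2 lower. With limma-voom 0 windows passed, though the lowest adjusted p was 0.0600, and 44 had an unadjusted p under 0.05. By library totals both endogenous libraries were above both SRSF7-GFP libraries in 143 windows (32.4%) and below in 35 (7.94%). After scaling by a trimmed mean of log ratios these counts were 80 (18.1%) and 98 (22.2%), as the scaling moved the median log2 difference from 0.30 to -0.09. A window entered the test at 120 CPM in 2 libraries, which 5 events meet in endogenous replicate 4, so windows that chance to be high in a shallow library are favoured.

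The named loci were placed by position: a stretch of anti-GFP events at a known site was given a gene's name where its length was 0.75 to 1.3 times the gene's length in RefSeq and its chromosome matched. The strand matched too where the table lists it, which it does not for Rn7sk, Snord118, Hsp90ab1 and Actb. Of 37 loci looked for, 23 were placed, counting the 45S ribosomal RNA locus, which the table did not list and whose name rests on its known position alone. Among the 14 not placed were Neat1, Meg3, Rian and Mirg, which are therefore not described. Of the 23, both endogenous libraries were above both SRSF7-GFP libraries in CPM at 6 (26.1%) and below at 2 (8.7%), shares near those of all windows. With the trimmed-mean scaling these counts were 5 and 6: Eef2 then overlapped, Srsf1, Srsf3, Srsf6 and Hnrnpu joined Srsf9 and Hnrnpk below, and Snord118, Gas5, Snhg1, Srsf2 and Hnrnph1 stayed above.

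The gene of SRSF7 itself (Srsf7, chromosome 17, minus strand, 80598952 to 80606649) was among the strongest loci of both products. It held 23299 CPM in SRSF7-GFP replicate 3 and 11964 CPM in replicate 4, and 16441 CPM in endogenous replicate 4 and 17513 CPM in replicate 5. The endogenous libraries lay between the SRSF7-GFP libraries, with means of 16977 ± 758 CPM (SD, n = 2) and 17631 ± 8015 CPM (SD, n = 2). In its 5000 nt window the log2 difference was -0.46 with an SE of 0.78 (limma-moderated test, adjusted p = 0.981). It was 0.11 without SRSF7-GFP replicate 3, which is the comparison within a set, and -0.80 without replicate 4. In WT cells, endogenous SRSF7 had 1164 CPM over the same locus. Transcripts of the resident gene and any identical stretch of the transgene are counted at 1 place here and cannot be told apart. The library without UV had 47 events at Srsf7, or 26404 CPM, and the library without antibody had 24, or 7820 CPM.

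Within Srsf7 the events of both products fell on the same short run of nucleotides. Counted from the 5′ end of the stretch in bins of 100 nt, 11 of 77 bins held at least 1% of the events on average, and they ran from nucleotide 1801 to about 3200. The bins starting at 2201 and 2301 took 12.5% and 11.4% of the locus' events in SRSF7-GFP replicate 3, 15.9% and 14.8% in replicate 4, 16.2% and 15.6% in endogenous replicate 4, and 16.9% and 15.9% in replicate 5. The bins starting at 2501 and 2601 took 23.4% and 24.3% in SRSF7-GFP replicate 3, but 12.8% and 13.3% in replicate 4, on either side of the endogenous 18.9% and 16.2% (replicate 4) and 15.8% and 15.7% (replicate 5). Across bins the correlation was 0.99 between the endogenous libraries, 0.98 and 0.99 between each of them and SRSF7-GFP replicate 4, and 0.91 between the SRSF7-GFP libraries, as a description over bins that share the locus. The endogenous library of WT cells had the same outline, with correlations of 0.97 and 0.98 to the endogenous libraries of overexpressing cells. Both endogenous libraries exceeded both SRSF7-GFP libraries in 4 of the 11 bins (36.4%) and were below in 1 (9.09%).

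**Figure D3:**
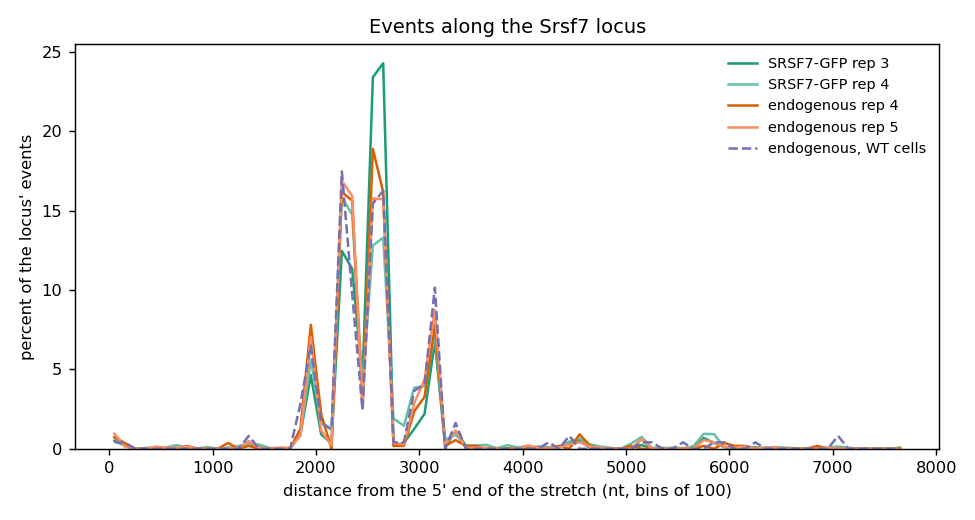
Percent of the events of the Srsf7 locus (y axis) per bin of 100 nt along the stretch (x axis, distance from its 5′ end), 1 line per library. All lines are high over the same run of bins, though the highest bin differs between libraries. SRSF7-GFP replicate 3 stands out at the bins starting at 2501 and 2601 with 23.4% and 24.3%.

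Among small noncoding RNAs, Snord118 had the widest gap between the products of all placed loci with events in all 4 libraries. Snord118 (chromosome 11, plus strand, 68886924 to 68887046) encodes the U8 small nucleolar RNA, which is needed for processing of large-subunit ribosomal RNA. It held 1571 CPM and 2646 CPM in SRSF7-GFP replicates 3 and 4, and 8280 CPM and 8044 CPM in endogenous replicates 4 and 5. The groups did not overlap, and the mean was 3.87 times higher in endogenous SRSF7 (8162 ± 167 against 2108 ± 760 CPM, SD, n = 2 each). The 5000 nt window around it did not pass the limma-moderated test, with a log2 difference of 1.54, an SE of 0.79 and an adjusted p of 0.981 (0.0928 unadjusted). Endogenous SRSF7 of WT cells also had a high level there, at 7026 CPM. The shorter RRM product of overexpressing cells had 733 and 4097 CPM, the anti-GFP libraries 341 to 1133 CPM, and the libraries without UV and without antibody 1124 and 1955 CPM on 2 and 6 events. With the header set as a block the log2 difference was 0.77, with no call.

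The 7SK RNA did not separate the products. Rn7sk (chromosome 9, minus strand, 78023129 to 78023445), an RNA that holds the elongation factor P-TEFb in an inactive complex, had 2116 and 4483 CPM in SRSF7-GFP replicates 3 and 4 and 3707 and 5614 CPM in endogenous replicates 4 and 5. The groups overlapped. Malat1, an abundant nuclear-speckle RNA (chromosome 19, minus strand, 5795459 to 5802675), overlapped too, with 6758 and 9689 CPM in SRSF7-GFP against 9207 and 10750 CPM in endogenous SRSF7, and 14436 CPM in endogenous SRSF7 of WT cells. Of 28 Malat1 bins with at least 1% of its events, both endogenous libraries were above in 4 (14.3%) and below in 5 (17.9%).

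Both hosts of small nucleolar RNAs were higher in the endogenous product. Gas5, a noncoding transcript whose introns yield such RNAs (chromosome 1, plus strand, 162964809 to 162968752), had 442 and 634 CPM in SRSF7-GFP and 1196 and 898 CPM in endogenous SRSF7, on 40 and 75 events in the latter. Snhg1, of the same kind (chromosome 19, plus strand, 8797984 to 8800833), had 426 and 541 CPM against 1405 and 730 CPM. The endogenous libraries thus lay above in both, by 1.94 times and 2.21 times in the means, as they did by totals in 32.4% of all windows. In WT cells endogenous SRSF7 had 502 CPM at Gas5 and 398 CPM at Snhg1, within the range of the SRSF7-GFP libraries of overexpressing cells at Gas5 and below both of them at Snhg1. No test beyond the windows was made of these values.

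Genes of splicing factors held few events, and by library totals most did not separate. Of these 11 genes 4 separated by totals and 8 with the trimmed-mean scaling, where the 2 above and 6 below stand beside 18.1% and 22.2% of all windows. Of 7 SR protein genes, Srsf2, a splicing factor gene known for regulating its own messenger RNA, was above in both endogenous libraries (229 and 284 CPM against 419 and 443 CPM, on 14 and 37 endogenous events), and Srsf9 was below. Srsf9 had 1 and 14 events in SRSF7-GFP and 0 in both endogenous libraries, where the upper 95% limit for replicate 4 was 110 CPM, above the SRSF7-GFP levels of 7.90 and 29.7 CPM. By totals Srsf1, Srsf3, Srsf5, Srsf6 and Tra2b overlapped. Of 4 hnRNP genes, Hnrnph1 was above in both endogenous libraries (403 and 405 CPM against 658 and 527 CPM), Hnrnpk below (111 and 132 CPM against 89.7 and 23.9 CPM, on 3 and 2 endogenous events), and Hnrnpdl and Hnrnpu overlapped. Of 5 abundant messenger RNA genes, Eef2, the translation elongation factor, was above by totals (513 and 679 CPM against 837 and 1161 CPM) and overlapped when scaled, and Actb, Eef1a1, Fasn and Hsp90ab1 overlapped.

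**Figure D4:**
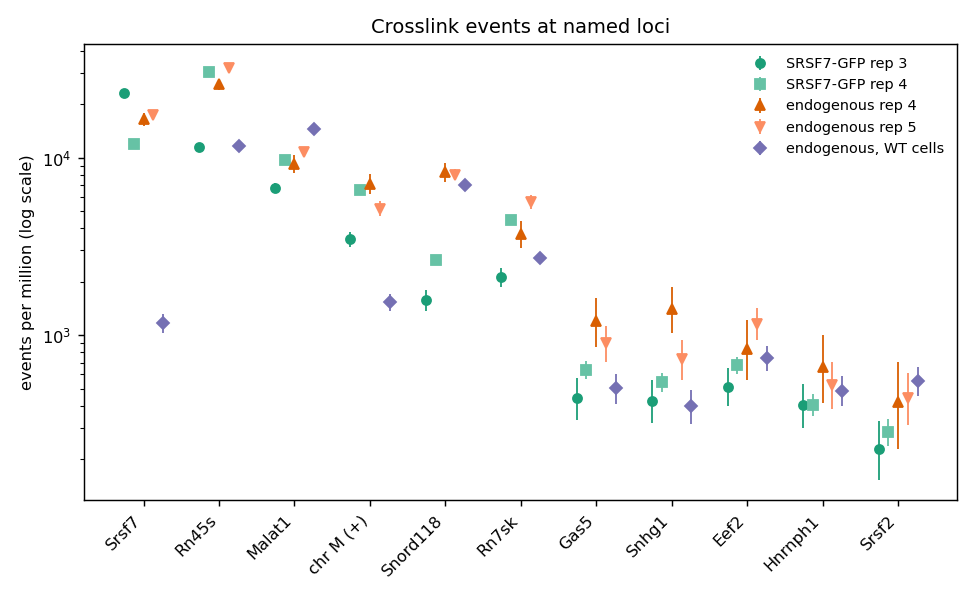
CPM (y axis, log scale) at 11 loci (x axis), 1 point per library with its exact 95% Poisson interval for counting error. At Snord118 the endogenous points stand at 8280 and 8044 CPM against 1571 and 2646 CPM for SRSF7-GFP. At Srsf7 only the WT-cell library, at 1164 CPM, is low.

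At the 45S ribosomal RNA locus the levels of the products overlapped, and the places of their events differed. Rn45s RNA is the precursor of the large ribosomal RNAs. No RefSeq length shows how much of it the stretch placed here covers. That stretch (chromosome 17, plus strand, 39979938 to 39985746) spans 5809 nt. It held 11535 and 30473 CPM in SRSF7-GFP replicates 3 and 4 and 25917 and 32201 CPM in endogenous replicates 4 and 5, so the groups overlapped, with means of 21004 ± 13391 CPM (SD, n = 2) and 29059 ± 4444 CPM (SD, n = 2). The log2 ratio of endogenous to SRSF7-GFP means ran from -0.07 without SRSF7-GFP replicate 3 to 1.33 without replicate 4. From nucleotide 4401 to 4800 of the stretch lay 26.7% and 22.3% of the locus' events in SRSF7-GFP (95% Wilson intervals 24.5% to 29.0% and 21.6% to 22.9%). The same 400 nt held 48.6% and 43.9% of the endogenous events (45.2% to 51.9% and 42.0% to 45.7%). These nucleotides were chosen after the values were seen, and the difference of 21.7 percentage points between means is a description.

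The comparison libraries differed in this share. Endogenous SRSF7 of WT cells had 29.4% of its Rn45s events in the 400 nt, the RRM product 16.9% and 22.3%, and the anti-GFP libraries 25.2% to 31.4%, all below the endogenous libraries of overexpressing cells. The library without antibody had 43.5% (37.1% to 50.2%) there, on 94 of 216 events, and 70381 CPM over the whole stretch, more than any of the 4. How much of the endogenous share this background makes up was not tested. Of 28 bins with at least 1% of the events, both endogenous libraries were above both SRSF7-GFP libraries in 7 (25%) and below in 14 (50%), and since shares add up to the whole, the gain in one place lowers others. The bin starting at 4901 went the other way, with 9.788% and 7.004% in SRSF7-GFP against 2.77% and 4.09% in endogenous SRSF7, and there the library without antibody, at 13.43%, lay above all 4. Across bins the correlation was 0.98 for the endogenous pair, 0.87 for the SRSF7-GFP pair and 0.70 to 0.84 between groups. The library without antibody had correlations of 0.86 and 0.74 with SRSF7-GFP replicates 3 and 4, and 0.84 and 0.87 with endogenous replicates 4 and 5.

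**Figure D5:**
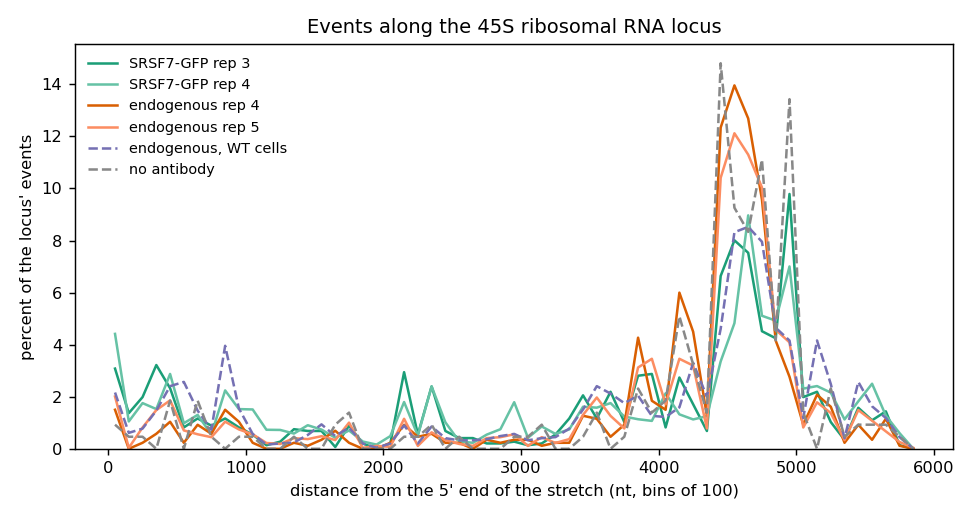
Percent of the events of the 45S ribosomal RNA locus (y axis) per bin of 100 nt (x axis, distance from the 5′ end of the stretch), 1 line per library. Summed from 4401 to 4800 nt, the endogenous libraries of overexpressing cells and the library without antibody are above the SRSF7-GFP libraries, with 48.6%, 43.9% and 43.5% of their events against 26.7% and 22.3%.

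Single nucleotides were tested in the same way. Of 141 tested, 0 passed the limma-moderated test with the trimmed-mean scaling (0% called, 19 at an unadjusted p under 0.05, lowest adjusted p 0.0506), and 8 (5.67%) passed with library totals, all higher in endogenous SRSF7. Of these 8, 6 lay in Rn45s. Nucleotide 90885585 of chromosome 4 had the lowest p, with 30 events in endogenous replicate 5 but 0 in endogenous replicate 4. SRSF7-GFP replicates 3 and 4 had 0 and 4 events there, so the groups overlapped at it. With 1 library left out, a group rests on 1 library, so calls are not counted. Under the trimmed-mean scaling the nucleotides that passed then changed in number, identity and direction with the library left out. By totals, both endogenous libraries were above both SRSF7-GFP libraries at 67 nucleotides (47.5%) and below at 4 (2.84%). A nucleotide could enter through the endogenous libraries where it is high, so neither these counts nor the 8 calls support a difference. Rn45s held 31 of the 67 and all 4 of the opposite kind, and Snord118 held 13 of its 14 tested nucleotides among the 67. Srsf7 had 3 of 30. An example in Rn45s is nucleotide 39984454, with 2 and 4 events in SRSF7-GFP (15.8 and 8.49 CPM) against 8 and 21 in endogenous SRSF7 (239 and 251 CPM), and 3 events in the library without antibody. Nucleotide 39984882 was opposite, with 324 and 505 CPM in SRSF7-GFP against 89.7 and 59.9 CPM in endogenous SRSF7 (log2 difference -2.93, SE 1.12, adjusted p = 0.154, limma-moderated), and 7 events in the library without antibody. On the 4 libraries alone its adjusted p was 0.408 by the same test. Within the set, without SRSF7-GFP replicate 3, its levels were 505 CPM against 89.7 and 59.9 CPM. That comparison has 1 SRSF7-GFP library, so its p-value is not given in either direction. In Snord118, nucleotide 68886932 had 482 and 420 CPM against 2571 and 1999 CPM, and 1467 CPM in WT cells.

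The level on the plus strand of the mitochondrial genome and the strand balance overlapped between the products. The mitochondrial plus strand, from which the ribosomal RNAs and most messenger RNAs of mitochondria are read, had 3466 and 6585 CPM in SRSF7-GFP and 7144 and 5159 CPM in endogenous SRSF7, with 1528 CPM in WT cells and 13034 CPM without antibody. The groups overlapped. Of 27 plus-strand bins with at least 1% of its events, both endogenous libraries were above in 8 (29.6%) and below in 5 (18.5%). The bin starting at 2601, chosen after its values were seen, took 5.239% and 5.638% in SRSF7-GFP against 12.13% and 12.76% in endogenous SRSF7, and 2.50% without antibody on 1 event. The minus strand had 339.5 and 653.5 CPM in SRSF7-GFP against 209.2 and 371.1 CPM, which overlapped by totals, and both endogenous libraries were below with the trimmed-mean scaling, on 7 and 31 events. Of all events, 49.2% and 50.6% in SRSF7-GFP and 50.5% and 50.5% in endogenous SRSF7 lay on plus strands, and contigs without a place held 0.144% and 0.0774% against 0.188% and 0.122%.

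The remaining windows among the 10 with the highest mean level carry no name here. On the minus strand of chromosome 4, the window from 42090001 to 42095000 had 2495 CPM in SRSF7-GFP replicate 3 but 403 CPM in replicate 4, and 2571 and 1832 CPM in endogenous replicates 4 and 5, and at least 98.4% of its events in each of the 4 libraries lay within 50 nt of 1 nucleotide. Among the 4 libraries, only SRSF7-GFP replicate 4 was low on this window. The anti-GFP libraries were as low or lower, with 393, 42.8 and 28.9 CPM, and the RRM libraries had 733 and 792 CPM. The WT-cell library had 1259 CPM. A window of chromosome 18 had 1784 and 503 CPM against 2840 and 2071 CPM. On the minus strand of chromosome 11, the window from 108870001 to 108875000 had 442 and 1360 CPM against 1584 and 2622 CPM. In the last 2 both endogenous libraries were above, with log2 differences of 0.68 (SE 0.79) and 0.84 (SE 0.85) that did not pass the limma-moderated test (adjusted p = 0.981 for each). On chromosome 18 the log2 difference was 1.85 without SRSF7-GFP replicate 3 and 0.10 without replicate 4, and on chromosome 11 it was 0.24 and 1.94, and 0.31 without endogenous replicate 5.

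Around strong anti-GFP peaks the products overlapped at the peak nucleotide and separated slightly beside it in averages over several nucleotides. Counting every pair of an event and a peak nucleotide up to 50 nt apart, the level at the peak nucleotide over that in the flanks from 31 to 50 nt was 2.15 and 2.26 in SRSF7-GFP and 2.27 and 2.24 in endogenous SRSF7. At 1 to 5 nt downstream it was 1.58 and 1.75 against 1.78 and 1.77, and at 1 to 5 nt upstream 1.49 and 1.66 against 1.72 and 1.68. In such averages both endogenous libraries were above both SRSF7-GFP libraries from 30 nt upstream to 15 nt downstream, except at the peak nucleotide itself. Single distances did not all separate so. At 1 nt upstream SRSF7-GFP had 1.60 and 1.87 against 1.84 and 1.80. At 29 nt upstream both endogenous libraries were below, with 1.05 and 1.03 against 1.01 and 1.02. At the peak nucleotide the library of WT cells was higher than all 4, at 3.21.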

How the data were processed

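Groups and replicates were taken from the sample titles, and members and gene lists were chosen with earlier results of these data known. The deposited score of each nucleotide is, per the file headers, the number of cDNAs on mm9 (Ensembl 59), with the sign for the strand. CASAVA 1.4 was used per the submitters' processing notes. No label or header names the aligner or a step that collapses duplicate reads, so repeated copies of 1 cDNA could raise the piling measures. The authors' peaks passed an FDR of 0.05 against 100 permutations within 15 nt, per the file headers. Header replicate numbers differ from the titles for SRSF7-GFP replicate 3, and the header of the library without UV names the shorter product.

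Absolute scores were summed per strand in windows of 5000 nt, with 10 events at the median library total required in 2 libraries and 15 in all. A count tool had been planned, but scores that carry a sign do not qualify as counts. A quasi-likelihood F test with negative binomial variance was therefore coded in R 4.3.3 and moderated with limma 3.58.1, on the 7 UV anti-SRSF7 libraries in 1 fit, with Benjamini-Hochberg adjustment. The test was tested on simulated data. All adjusted p-values come from it unless limma-voom is named. CPM uses events on placed chromosomes. The named windows follow the rule of largest changes among called windows (none was called) and the 10 highest mean levels. Names of loci rest on known positions checked by length against RefSeq (GRCm38.p6), not on an annotation of mm9, and Rn45s has no such check. The alternatives tried were other scaling, filters, windows, depths, tests and left-out libraries. Thinning used 10 seeded draws. No columns were left without a sample.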

Additional observations from a re-analysis of the deposited data

How the results depend on the processing

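Of the 266 alternative values of 40 results, 118 kept all libraries. Of these, 104 moved by no more than the spread between replicates or kept their count. The other 148 left out 1 library. Leaving out 1 of 2 libraries moves their mean by less than their SD by arithmetic, so differences of means could hardly move past that spread. The window test gave 0 calls under every alternative run, including 0 with the replicate block and 0 with the header set as a block. The groups share only replicate number 4, so the numbers pair 1 library of each group, and the block changed no call. Single nucleotides, whose test was added after seeing the data, gave 8 calls with library totals. With the trimmed-mean scaling and 1 library left out, the nucleotides that passed changed in number, identity and direction with the library left out. The endogenous pair exceeded the mixed pairs in shared nucleotides by 2.72 percentage points, by 2.21 at 16726 events, 1.48 with each position drawn once, 3.45 within 5 nt, and 2.33 to 3.11 with 1 library left out. The SRSF7-GFP pair lay below them, at -1.89, and at -0.612 with each position drawn once and -2.81 within 5 nt. With each position drawn once, endogenous replicate 4 gave all of its 29752 positions, and SRSF7-GFP replicate 4 gave as many of its 421213. Deep libraries then share less by construction, so these values are no check of the order of the pairs. With each position counted once, the log2 ratio of endogenous to SRSF7-GFP level was 0.81 at Srsf7, 0.70 at Malat1 and 1.51 at Rn7sk, where it was -0.05, 0.28 and 0.50 by events. The Rn45s difference was then 10.98 percentage points, and 19.4 to 24.1 by events with 1 library left out. Counting positions once fills up dense loci in deep libraries, which lowers SRSF7-GFP by construction. The library without UV was then 1.08% of the mean of the 4. With 1 library left out, the difference was 1.63 to 2.88 points for nucleotides with 5 or more events, 2.09 to 3.06 for strong peaks and 1.95 to 4.02 for the 500 windows (added after seeing the data), and the Snord118 log2 ratio was 1.63 to 2.38. At 33453 events, a locus under about 100 CPM rests on 3 events or fewer in endogenous replicate 4.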
